A study of Mus musculus with 3 samples.

Results

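The 10 genes described here encode the regulators through which the nucleus sets mitochondrial gene expression, namely *Nrf1*, *Gabpa*, *Gabpb1*, *Tfam*, *Tfb1m*, *Tfb2m*, *Ppargc1a*, *Ppargc1b*, *Pprc1* and *Esrra*. They were chosen by name, as 10 of the 22028 protein-coding genes of the annotation. Every ATAC-seq peak overlapping the gene body or the 10 kb on either side of it was taken from each of 4 peak lists. Peaks that overlapped between lists were joined, which gave 30 regions at these genes of 50965 in the whole series. ATAC-seq marks accessible DNA by the insertion of sequencing adapters with a transposase. It measures neither RNA nor protein, and in a bulk sample a site open in fewer cells cannot be told apart from a site less open in each cell.

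The cells were pre/pro-B-cell lines of C57BL/6 mice, made by transducing bone marrow with a retrovirus that carries BCR-ABL(p185) and GFP. All 4 lines therefore shared the oncogene. They differed in *Cdk6*, for which the donors were homozygous for either the wildtype allele (*Cdk6*+/+, here WT) or the kinase-inactive K43M allele (*Cdk6*KM/KM, here K43M). There were 2 lines per genotype and 1 library per line, so a difference between genotypes cannot be told apart from one between these lines beyond their spread. Labelled samples exist for both K43M lines (replicates 1 and 2) and for WT replicate 2. For the fourth list no sample label was at hand. The design text of the series names a reanalysed wildtype line, so this list was treated as that line under the name WT unnumbered, and counts without it are given beside the results.

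The lists held between 33038 and 39038 peaks, with median summit pileups (read ends per 200 bp at the peak top) of 22 to 26. Read totals are not given in peak lists, so depth is known only through these values. Of 8 B-lineage marker genes, 7 had a promoter peak in every list, and *Cd79b* had one in all but K43M replicate 2. None of 3 T-lineage, 3 myeloid, 2 annotated erythroid and 1 liver marker had one in any list.

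Mitochondria carry a small genome, but nearly all proteins that copy, transcribe and use it come from nuclear genes. NRF-1, encoded by *Nrf1*, and the ETS factor GABP, built from the DNA-binding subunit Gabpa and the activating subunit Gabpb1, bind the promoters of many of those genes. They include *Tfam*, whose product packages mitochondrial DNA and starts its transcription, and *Tfb1m* and *Tfb2m*, of which Tfb2m is the transcription initiation factor and Tfb1m the methyltransferase of the small ribosomal subunit RNA. The coactivators PGC-1α (*Ppargc1a*), PGC-1β (*Ppargc1b*) and PRC (*Pprc1*) do not bind DNA themselves and act through NRF-1, GABP and the nuclear receptor ERRα (*Esrra*). PGC-1α is known as the inducible coactivator of brown fat, muscle and fasting liver.

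The sequences below show the promoters on the strand of the gene, 5′ to 3′, on GRCm38. Capitals mark exact matches to the motifs searched on both strands, which were GCGCANGCG for NRF-1, CCGGAAGT for ETS, GGGGCGG for SP1, CCAATCA or CCAATGA for NFY, AAGATGGCG for YY1, TGACGTCA for CRE and TCAAGGTCA for ERR. For *Esrra* and *Tfb1m* the 151 bases around the summit are shown, since the *Esrra* window holds the NRF-1 match.
Esrra, chr19:6921916-6922066, minus strand: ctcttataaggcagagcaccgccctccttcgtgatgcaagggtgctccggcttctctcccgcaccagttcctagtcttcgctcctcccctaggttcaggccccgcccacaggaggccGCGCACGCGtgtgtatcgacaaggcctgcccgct
Tfb1m, chr17:3557790-3557940, minus strand: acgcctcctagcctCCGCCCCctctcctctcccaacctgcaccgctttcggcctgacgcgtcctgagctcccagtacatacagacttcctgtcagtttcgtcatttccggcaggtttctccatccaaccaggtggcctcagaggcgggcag
For *Nrf1*, *Gabpb1* and *Pprc1*, with a promoter peak in every list, and *Ppargc1a*, with none, the 150 bases before a RefSeq start (GRCm38.p6) are shown. They set promoters with a peak beside the one without.
Nrf1, chr6:30047838-30047987, plus strand: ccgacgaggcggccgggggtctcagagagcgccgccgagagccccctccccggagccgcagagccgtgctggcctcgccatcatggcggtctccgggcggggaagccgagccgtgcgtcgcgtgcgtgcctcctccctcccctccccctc
Gabpb1, chr2:126675593-126675742, minus strand: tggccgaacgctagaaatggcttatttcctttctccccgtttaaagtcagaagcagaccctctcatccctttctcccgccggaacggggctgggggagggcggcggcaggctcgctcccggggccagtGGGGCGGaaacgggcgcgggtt
Pprc1, chr19:46056389-46056538, plus strand: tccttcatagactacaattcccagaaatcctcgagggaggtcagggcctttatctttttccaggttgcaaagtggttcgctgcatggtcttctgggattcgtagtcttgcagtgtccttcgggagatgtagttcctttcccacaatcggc
Ppargc1a, chr5:51567726-51567875, minus strand: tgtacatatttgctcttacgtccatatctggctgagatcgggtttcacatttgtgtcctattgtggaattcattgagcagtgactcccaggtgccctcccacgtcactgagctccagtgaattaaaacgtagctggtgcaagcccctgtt
For *Gabpa*, *Tfam* and *Tfb2m* the 30 bases around a match are shown, ETS at *Gabpa* and at *Tfam*, and SP1 at *Tfam* and at *Tfb2m*.
Gabpa, chr16:84834847-84834876, plus strand: gccaccgttctACTTCCGGccctggctccg
Tfam, chr10:71238073-71238102, minus strand: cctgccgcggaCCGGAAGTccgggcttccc
Tfam, chr10:71238157-71238186, minus strand: tagcctcaggctCCGCCCCctcctcggccc
Tfb2m, chr1:179546305-179546334, minus strand: cacaggagcctgGGGGCGGagcctaggcgg

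The first question was whether the promoters of the regulators were open in both genotypes. A promoter was counted as open when a peak overlapped the 2000 bp before or the 200 bp after an annotated start. Of the 10 genes, 9 had a promoter peak in every list, and *Ppargc1a* had none in any list. Among all protein-coding genes, 47.5% had a promoter peak in every list. The 10 genes have 28 annotated promoters once starts within 500 bp are joined. Of these, 13 had a peak in every list and the other 15 had none in any list, so no annotated promoter of these genes was open in 1 genotype alone. The 9 genes were the same without the unnumbered wildtype list, without each other list, with windows of 500 bp on either side, and with protein-coding transcripts only.

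**Figure D1:**
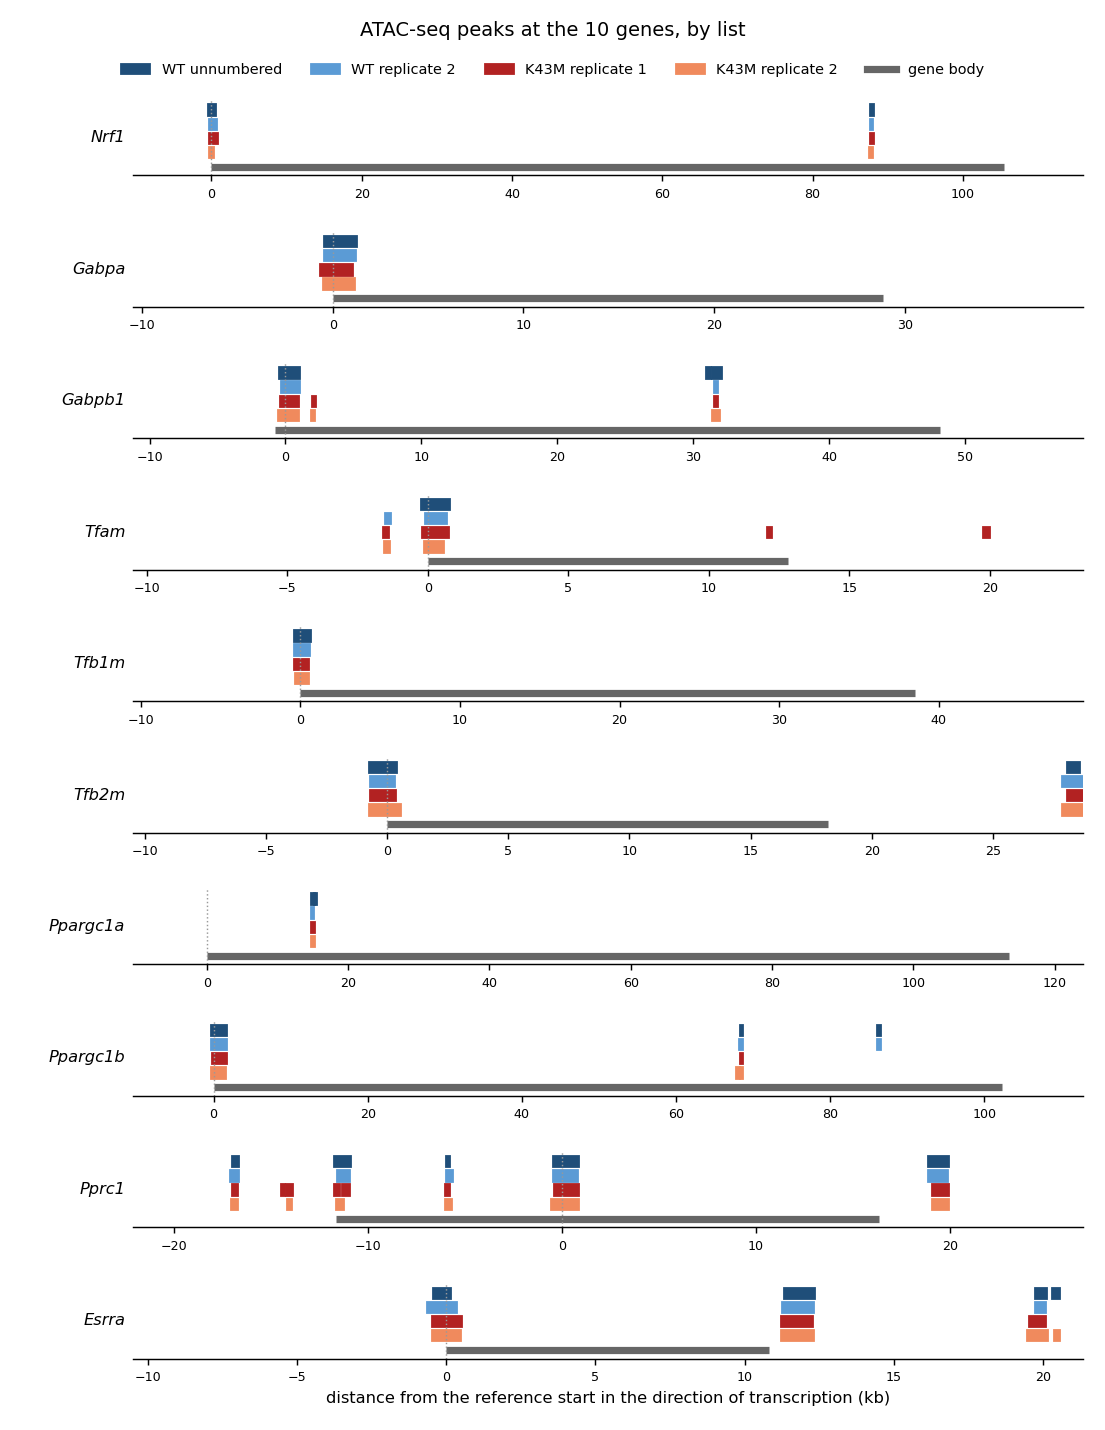
Peaks of each list (coloured bars, 1 row per list) along the 10 genes, with the distance in kb from the first start of the open coding promoter, or from the first annotated start of *Ppargc1a*, on the x axis; the grey bar is the gene body, each panel has its own scale, and narrow peaks are drawn at a minimum width. Every gene but *Ppargc1a* has bars of all 4 lists at its start, and bars present in 2 lists only are seen at *Gabpb1*, *Ppargc1b*, *Pprc1* and *Esrra*.

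Fold enrichment, the authors' ratio of the signal at a summit to the background around it, described these peaks relative to their surroundings. At the nuclear factors, the single open promoter of *Nrf1* (chr6:30047584-30048827, the most upstream of 5 annotated) had a fold enrichment of 8.82 for WT unnumbered and 10.6 for WT replicate 2, against 10.2 for K43M replicate 1 and 10.5 for K43M replicate 2. The K43M values lay between the wildtype values. The *Gabpa* promoter (chr16:84834280-84836209) is shared with *Atp5j*, an ATP synthase subunit gene transcribed the other way. It gave 9.28, 9.12, 9.53 and 10.3 in the same order, with both K43M values slightly above both wildtype values. Its summit pileups of 115 and 101 in wildtype and 105 and 91 in K43M overlapped. At *Gabpb1* only the middle of 3 promoters was open (chr2:126674535-126676114). The region ended short of the most upstream promoter's window, which reaches 200 bp past the start at 126676337. Fold enrichments were 6.52, 7.26, 6.25 and 5.45, and both K43M values lay below both wildtype values. The summit pileups of 56 and 52 in wildtype and 54 and 40 in K43M overlapped. How often the genotypes did not overlap over all shared regions was not counted, for these or for later regions.

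The factors that act in the mitochondrion had some of the highest promoter fold enrichments of the set. *Tfam* (chr10:71237477-71238514) had values of 10.8 and 12.8 in wildtype and 12.0 and 11.4 in K43M, and the genotypes overlapped. This 1 region covered 3 of its 4 annotated promoters. *Tfb1m* (chr17:3557134-3558172), with 1 promoter, had 11.9 and 11.5 in wildtype and 12.9 and 14.2 in K43M, without overlap. Its summit pileups of 99 and 91 in wildtype and 93 and 71 in K43M did overlap. How often the genotypes were without overlap over all shared regions was not counted. *Tfb2m* (chr1:179545706-179547022), whose open promoter is shared with its divergent neighbour *Cnst*, had 12.7 and 12.1 in wildtype and 12.7 and 12.0 in K43M, and the genotypes overlapped. The lowest rank of the *Tfb2m* peak by -log10 q within any list was percentile 98.5, the highest such value among the 30 regions.

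The receptor gene *Esrra* (chr19:6921283-6922437) had fold enrichments of 12.5 and 11.8 in wildtype and 12.2 and 11.6 in K43M, again with overlap, and its 1 region covered both annotated promoters. The coactivator promoters had lower fold enrichments than *Esrra* in every list. *Pprc1* was open at its coding starts (chr19:46055985-46057421), with 7.49 and 9.14 in wildtype and 8.60 and 6.60 in K43M, which overlapped. It was also open at a non-coding start inside *Ldb1* (chr19:46044780-46045647), with 3.89 and 4.72 in wildtype and 3.56 and 3.55 in K43M. These were the lowest fold enrichments among the 10 promoter regions with a peak in every list. They were lower in both K43M lists than in either wildtype list. This region is shared with a promoter of *Ldb1*. Its summit lay at -141 bp from an *Ldb1* start and at 169 bp from the *Pprc1* start, so the peak cannot be assigned to *Pprc1* alone. *Ppargc1b* (chr18:61398673-61400775) had 5.61 and 6.24 in wildtype and 6.70 and 6.33 in K43M. Both K43M values lay above both wildtype values. The summit lay 1293 bp downstream of the start, and the region was the widest of the 10 promoter regions at 2103 bp. By summit pileup both K43M values at *Ppargc1b* lay below both wildtype values, with 73 and 67 in wildtype and 58 and 49 in K43M. The *Esrra* pileups were 71 and 78 in wildtype and 83 and 70 in K43M.

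**Figure D2:**
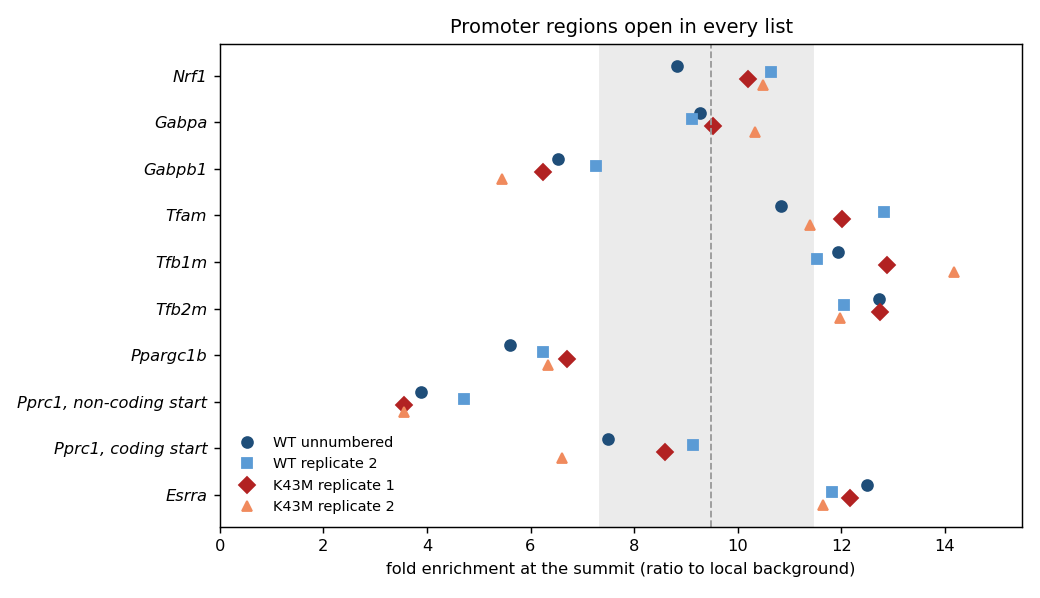
Fold enrichment at the summit (x axis, a ratio without unit) of the 10 promoter regions with a peak in every list, 1 point per list; the grey band spans the lower to the upper quartile of the mean fold enrichment of 11074 shared promoter regions and the dashed line is its median of 9.49. The points of *Tfb1m* reach from 11.5 to 14.2, and those of the non-coding start of *Pprc1* lie below 5.

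Over the 10 shared promoter regions the median of the mean fold enrichment was 9.80, beside 9.49 for all 11074 shared promoter regions. Their median width was 1280.5 bp (all: 968 bp), and 9 of the 10 were wider than the median. Within 100 bp of the summit, the NRF-1 motif was found in 1 of the 10 regions (*Esrra*), beside 11.6% of all shared promoter regions. The ETS motif was found in 2 (*Gabpa* and *Tfam*), beside 7.56%, and the SP1 motif in 5 (*Tfam*, *Tfb1m*, *Tfb2m*, *Ppargc1b* and *Pprc1* at the non-coding start), beside 38.0%. NFY, YY1, CRE and ERR motifs were found in none of the 10, beside 14.2%, 2.57%, 3.25% and 0.0994%. In the RefSeq windows from 250 bases before to 50 after a start, available for 9 of the genes, the NRF-1 motif occurred at *Gabpb1*, *Tfb2m* and *Esrra*, beside 10.0% of 16522 genes. ETS occurred there at *Tfam* (5.94%), SP1 at *Gabpb1*, *Tfam*, *Tfb1m* and *Tfb2m* (35.0%), NFY at *Nrf1* (14.9%), at a start without a peak, and YY1 at *Gabpa* (2.25%), whereas CRE and ERR motifs occurred at none. The ETS match of *Tfam* begins 47 bases before the RefSeq start, and its centre lies 193 bp after the most upstream start of the GENCODE annotation. A match is a sequence of letters and does not show that a factor was bound.

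*Ppargc1a* had no peak at either annotated promoter in any list. Its only region was intronic (chr5:51552231-51553013), with the summit 1253 bp downstream of the second promoter, and had a peak in every list. Its fold enrichments of 4.22, 6.05, 4.88 and 4.84 were low, with summit pileups of 12, 14, 15 and 11. The lowest rank was percentile 4.84, in WT unnumbered. The K43M values lay between the wildtype values.

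The next question was whether the levels differed between the genotypes where every list had a peak. Of the 30 regions, 20 (66.7%) had a peak in every list, beside 41.2% of all regions. For these, log2 fold enrichment was compared with limma over all 21012 shared regions of the series. No region passed an adjusted p of 0.05 in limma, neither among the 20 nor in the whole series (0%), while 12.4% of all shared regions and 1 of the 20 had an unadjusted p under 0.05. Over the series, 35 regions passed with summit pileup in place of fold enrichment and 23 with an intensity trend in limma. Without WT unnumbered the count was 21 and without WT replicate 2 it was 29, in fits where the spread comes from the K43M lines alone and the lone wildtype line is assumed to vary like them. None of these was at the 10 genes.

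The differences at the promoters were small. K43M minus WT, they ranged from -0.27 ± 0.16 (SE, n = 2 lines per genotype) at the non-coding start of *Pprc1* to 0.21 ± 0.16 at *Tfb1m* on the log2 scale. Leaving out 1 list in turn moved these values to between -0.41 (without WT unnumbered) and -0.12 (without WT replicate 2) at *Pprc1*, and to between 0.083 (without K43M replicate 2) and 0.33 (without K43M replicate 1) at *Tfb1m*. The limma adjusted p-values at the promoters were 0.571 or higher. For *Nrf1* the difference was 0.10, with a 95% interval from -0.28 to 0.47. It was -0.01 for *Tfam* (-0.37 to 0.35), -0.00086 for *Tfb2m* (-0.33 to 0.33) and -0.03 for *Esrra* (-0.36 to 0.31). For *Gabpb1* it was -0.23 (-0.58 to 0.11). Among the 20 regions, 9 were higher in K43M and the median difference was -0.0046, beside 0.0015 over all shared regions.

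**Figure D3:**
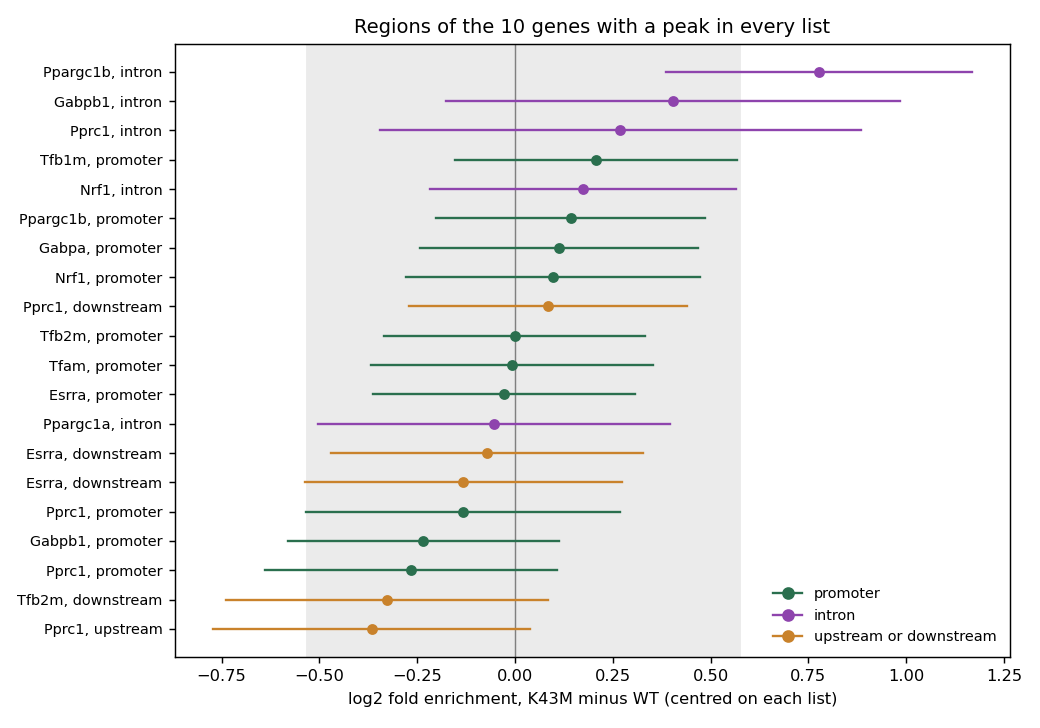
Difference in log2 fold enrichment between K43M and WT (x axis; positive is higher in K43M) for the 20 regions with a peak in every list; points are the limma estimates, lines their 95% intervals and the grey band the middle 95% of the differences of all 21012 shared regions. The *Ppargc1b* intron region at 0.78 is the only point outside the band and the only one whose interval does not cover 0.

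The largest difference of the set was in an intron of *Ppargc1b* (chr18:61331743-61332114), 68465 bp downstream of the start. The fold enrichment was 5.52 in both wildtype lists, against 11.1 and 8.02 in K43M, and summit pileups were 15, 15, 35 and 20. Both K43M values were above both wildtype values. The log2 difference was 0.78 ± 0.17 (SE), with an unadjusted p of 0.00176 and an adjusted p of 0.163 in limma, so it did not pass. A difference at least as large was found at 1.16% of all shared regions. Leaving out K43M replicate 1 lowered it to 0.60, and leaving out K43M replicate 2 raised it to 0.96.

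The signal on chromosome 18 differed between the genotypes beyond this gene. The local background of 662 shared regions there, set against the autosomal median on the log2 scale, was 0.24 and 0.28 in the wildtype lists and -0.16 and -0.20 in the K43M lists. At the *Ppargc1b* promoter the pileups were 73 and 67 in wildtype and 58 and 49 in K43M, over local backgrounds of 12.2, 9.90, 7.80 and 6.90. There the log2 difference was 0.14 by fold enrichment, which divides by that background, and -0.29 by pileup, neither past the threshold. At the intron region the local backgrounds were 1.90 in both wildtype lists and 2.24 and 1.62 in the K43M lists. The difference there by pileup was 0.92, with an adjusted p of 0.110 in limma. The part of the chromosome-wide background in these values was not tested.

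The remaining question was which regions at the regulators had a peak in 1 genotype only. Strictly wildtype-only regions, with a peak in both wildtype lists and neither K43M list, numbered 1 of the 30 (3.33%), beside 4.51% of all regions. Strictly K43M-only regions numbered 2 (6.67%), beside 7.64%. Both counts are near these background shares and are no result about the 10 genes. Without WT replicate 2 the wildtype-only count was 2 of 30, beside 11.4% of all regions, and without K43M replicate 2 the K43M-only count was 5 of 30, beside 19.5%. Each then rested on 1 list of that genotype. None of the 3 regions was at an annotated promoter of the 10 genes.

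The first K43M-only region lay in an intron of *Gabpb1* (chr2:126673400-126673719), 1805 bp downstream of the open promoter. It had fold enrichments of 3.10 and 3.88 and summit pileups of 26 (95% Poisson interval 17.0 to 38.1) and 28 (18.6 to 40.5). By the background of the nearest peak, a pileup of 19 in WT unnumbered and of 16 in WT replicate 2 would have been called. The second lay upstream of *Pprc1*, inside the neighbour *Ldb1*, a transcription cofactor gene (chr19:46042314-46042670). Its fold enrichments were 3.71 and 3.21 and its pileups 36 (25.2 to 49.8) and 28 (18.6 to 40.5), where 16 would have been called in either wildtype list. The wildtype-only region lay in an intron of *Ppargc1b* (chr18:61314019-61314219), 86250 bp downstream of the start. It had fold enrichments of 5.43 and 5.88 and a pileup of 13 (6.92 to 22.2) in both lists, where 6 would have been called in the K43M lists over the genome background. This region too lies on chromosome 18, where the local background was higher in the wildtype lists. The part of that background in its pileups was not tested. The intervals cover counting error only. The lists differ in depth, with a genome background of 1.31 and 1.13 read ends per 200 bp in wildtype and 1.10 and 0.968 in K43M, and the callable pileups are the least that an assumed background allows. Whether the lists without a peak were closed at these regions was thus not tested.

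**Figure D4:**
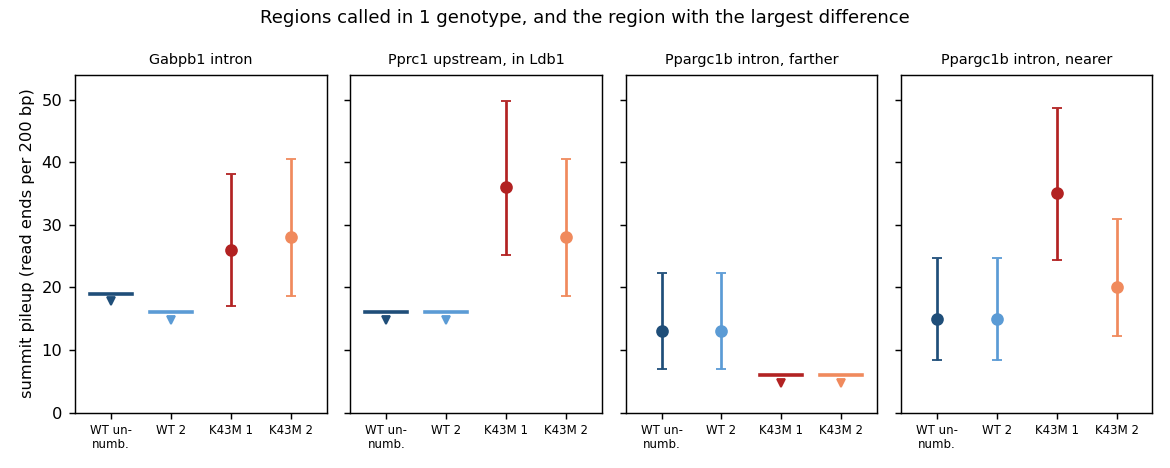
Summit pileup (y axis, read ends per 200 bp) by list for the 3 regions with a peak in 1 genotype only and for the *Ppargc1b* intron region with a peak in every list (nearer to the start); points are called peaks with 95% Poisson intervals, and a horizontal line with a downward mark is the lowest pileup that would have been called in a list without a peak. The *Pprc1* upstream pileups of 36 and 28 stand above the line at 16, and the farther *Ppargc1b* region had 13 in both wildtype lists above a line at 6.

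Of the other internal and flanking regions, some were shared by every list and others were not. An intron of *Nrf1* had a low peak in every list (chr6:30135584-30136052), with fold enrichments of 6.07, 6.58, 8.33 and 6.07. An intron of *Gabpb1* had 7.78, 4.66, 9.46 and 6.69 (chr2:126643485-126644212), so the wildtype lists differed more from each other than the genotypes did. An intron of *Pprc1* had 5.16, 4.58, 4.46 and 7.66 (chr19:46050491-46050913). Upstream of *Tfam*, with the summit at -1474 bp from the start, a small peak was called in WT replicate 2, K43M replicate 1 and K43M replicate 2 (chr10:71239598-71239863), with 3.64, 3.68 and 3.86, but not in WT unnumbered. This region is the only promoter region of the 11 that was not shared by every list.

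Several of the strong flanking peaks belonged to promoters of neighbours. The region downstream of *Tfb2m* is the promoter of *Smyd3*, with fold enrichments of 12.0 and 10.3 in wildtype and 8.10 and 9.65 in K43M. That downstream of *Pprc1* is the promoter of *Nolc1*, at 13.2 or higher in every list. The shared region upstream of *Pprc1* is a further promoter of *Ldb1*, with 6.65, 8.68, 5.85 and 5.91. Downstream of *Esrra* a region at the promoters of *Trmt112* and *Prdx5* had 10.6, 8.18, 9.61 and 8.10. A further region there overlapped no promoter window of a protein-coding gene and had 10.3, 10.1, 11.1 and 7.77. The remaining 6 regions had a peak in 1 list or in 1 list of each genotype, with fold enrichments from 2.62 to 6.02 per list.

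Counted by list, the 10 loci held 24 and 22 peaks in the wildtype lists and 27 and 25 in the K43M lists. The mean difference of 3 peaks had a two-sided p of 0.333 in the exact permutation test over 6 splits, the smallest p that 2 lists against 2 allow. With the same number of peaks taken from each list the difference was 0. As a share of each list, the peaks were 0.0726%, 0.0642%, 0.0692% and 0.0719%, and the genotypes overlapped.

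The genes these regulators work with were described by a list of 38. All 8 genes of mitochondrial DNA maintenance (such as the polymerase *Polg* and the helicase *Twnk*) and all 10 of mitochondrial RNA processing (such as *Lrpprc* and *Pnpt1*) had a promoter peak in every list. So had 6 of 7 genes of mitochondrial transcription, among them the RNA polymerase *Polrmt*, and 8 of 13 nuclear factors and cofactors. In all, 32 of the 38 did, beside 47.5% of all protein-coding genes. The median of their highest promoter fold enrichment was between 9.75 and 10.4 in the 4 lists. None of 35 shared regions at these promoters passed in limma, 17 were higher in K43M, and differences ranged from -0.36 to 0.42 on the log2 scale with a smallest adjusted p of 0.322.

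The other 6 genes lacked a promoter peak in some or all lists. *Esrrb*, *Esrrg* and *Pparg*, nuclear receptors related to ERRα or partners of the PGC-1 coactivators, had none in any list. *Ppara*, a receptor of fatty acid oxidation, had one in WT unnumbered (fold enrichment 7.64) and K43M replicate 1 (6.87). *Perm1*, a muscle cofactor, had one in every list (5.20, 5.56 and 6.56) except K43M replicate 2. *Mterf1b* had one in K43M replicate 1 alone (5.23). It has a near-identical copy, *Mterf1a*, and the authors removed reads with several positions, so the values of both genes are uncertain.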

How the data were processed

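The data were 4 lists of ATAC-seq peaks, 1 per cell line. Per the study's methods, the authors trimmed reads with Trimmomatic 0.36, mapped them to mm10 with bwa-mem 0.7.15, removed blacklisted, multiply mapped and low-quality reads, and called peaks per library with MACS2 2.1.0, with no control or pooling named. The deposited values are the fold enrichment at each summit, a ratio to the background of the same library, and, for each peak, its p-value and q-value as -log10. The code was tested on simulated data. Reads were not analysed here.

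Peaks overlapping by at least 1 bp were joined across lists and classified by the lists that hold a peak. Summit pileup and local background were recovered from fold enrichment and -log10 p, which follow a Poisson model, for 100% of peaks. No peak was identical between lists. Promoters and gene bodies came from GENCODE M21, of the same build as the lists. Regions shared by every list were compared with limma 3.58.1 (R 4.3.3) on log2 fold enrichment, centred on the median of each list, with Benjamini-Hochberg adjustment over all 21012 regions and a threshold of 0.05. The p-values measure the spread between these lines. The limma standard errors, intervals and p-values use a variance of each region moderated by that of all 21012 regions (eBayes). Counts of regions carry no test. Named are all 10 genes, their promoters, regions shared by every list or strictly of 1 genotype, and genes of the pathway list lacking a promoter peak. The genes, lists and tests were chosen with earlier results of these data known. Alternatives changed the peak threshold, number of peaks, overlap, flank, promoter window, transcripts, scaling and libraries. Python 3.11.15, pandas 2.3.3, scipy 1.17.1 and pysam 0.24.0 were used.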

Additional observations from a re-analysis of the deposited data

How the results depend on the processing

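In limma, no region of the 10 genes passed the threshold in any alternative: it called 0 of their shared regions under each alternative, and the number of genes with a promoter peak in every list was 9 in each alternative run on it. With the same number of peaks from each list, K43M-only regions numbered 1 and the difference in peaks per list was 0, and without the flank K43M-only regions numbered 1. Leaving out a list gave 1 to 2 wildtype-only and 2 to 5 K43M-only regions, while the shares over all regions were 6.26% to 11.5% and 10.9% to 19.5%. Over the series limma called 35 regions by summit pileup, 23 with an intensity trend, and 0 to 29 when a list was left out, where the lone line of a genotype is assumed to vary like the pair. The sign of several promoter differences, none past the threshold, turned. By summit pileup they were -0.13 (*Nrf1*), -0.035 (*Gabpa*), 0.11 (*Tfam*), -0.12 (*Tfb1m*), 0.11 (*Tfb2m*), -0.29 (*Ppargc1b*) and 0.14 (*Esrra*), and with -log10 q of at least 3 that of *Tfb2m* was 0.00064. With a list left out they ranged from -0.042 to 0.23 for *Nrf1*, -0.00096 to 0.22 for *Gabpa*, -0.13 to 0.12 for *Tfam*, -0.037 to 0.035 for *Tfb2m*, -0.28 to 0.013 for *Pprc1* (coding starts) and -0.065 to 0.0090 for *Esrra*. The cause was not tested. The labels number 1 wildtype list only. With the unnumbered list taken as the first wildtype line of the design text, a choice made after seeing the data, limma with the replicate number as a block called 0 regions. Under the same choice, deviations of lists of the same number correlated at 0.030 across regions. Whether lists of the same number shared a preparation was not tested. Read totals are not in the lists, so depth limits weak peaks to an unknown extent.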
